A study of Mus musculus with 2 samples.

Results

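The regions described here are 2945 places in the mouse genome where Hnf4a signal was called in both replicates and that lie outside, and more than 10 kb from, every protein-coding gene. They were chosen from the deposited peak summits, each a single base with the authors' −log10 q-value, called "score" below. Summits of both replicates on chromosomes 1 to 19 and X were chained when neighbours lay within 100 bp, which gave 36155 chains. Of these, 9179 held a summit of each replicate, and their midpoints were placed against 21519 protein-coding genes of RefSeq GRCm38.p6. Another 3676 shared regions lay inside gene bodies, 1701 within 1 kb of a gene end and 846 between 1 and 10 kb from a gene. A total of 2956 lay farther away, and 11 of these were set aside because both scores exceeded 100. The 2945 that remained, here called distal regions, made up 32.1% of the shared regions. Sharing, distance from genes and the score limit were therefore set by the choice and are not findings.

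Hnf4a was profiled by ChIL-seq, in which an antibody-bound probe guides Tn5 transposase to tag nearby DNA that is then transcribed in place. The material was a single group, iHepCs made from mouse embryonic fibroblasts of strain C57BL/6J, genotype WT, that received Foxa2 and Hnf4a by retrovirus, and it was sampled in 2 replicates. The fibroblast label on the samples could not be set against marker expression, because only genomic DNA was measured. No control samples were analysed here, both libraries carry the same cell lot in their peak names, and read depth is unknown. All cells shared both introduced factors, 100 nM dexamethasone and 20 ng/ml each of HGF and EGF in the medium. With 2 replicates and no other group, no test over samples was possible. An exact sign-flip permutation test of any replicate difference could not go below p = 0.5, so values are given for each replicate and intervals cover counting error only.

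Hnf4a is a nuclear receptor that binds DNA as a homodimer and activates much of the liver's gene programme. In liver cells many of its binding sites lie far from promoters, in enhancers that reach their genes by looping. Genes that control development often sit beside long stretches without coding genes, called gene deserts, which can hold many such enhancers. Binding beside a gene does not show which gene, if any, is regulated.

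A few distal regions fell in the promoters of non-coding genes, where RefSeq gives the sequence. Of 5967 such promoter windows far from coding genes, each with 250 bases before and 50 bases after a gene's start, 29 (0.486%) held a distal region. The 4 whose regions ranked best, by the worse of their ranks in both replicates, are shown, 5′ to 3′ on the gene's strand. They are promoter windows, are not centred on the regions and do not stand for distal regions in general. Capitals mark every match, on either strand, to letters known from the motifs of HNF4 (CAAAGTCCA), its short core (CAAAG), FOXA (TGTTTAC), AP-1 (TGANTCA), C/EBP (TTGCNNAA) or TEAD (GGAATG). The short core lies within the HNF4 letters, so every HNF4 match is also a core match. All 4 are lncRNA genes in GRCm38.p6: Gm31880 at chr3:98932472-98932771 on the minus strand, 5430425K12Rik at chr13:80940153-80940452, Gm51651 at chr1:155056274-155056573 and Wincr1 at chr4:89050057-89050356, the last 3 on the plus strand.
Gm31880: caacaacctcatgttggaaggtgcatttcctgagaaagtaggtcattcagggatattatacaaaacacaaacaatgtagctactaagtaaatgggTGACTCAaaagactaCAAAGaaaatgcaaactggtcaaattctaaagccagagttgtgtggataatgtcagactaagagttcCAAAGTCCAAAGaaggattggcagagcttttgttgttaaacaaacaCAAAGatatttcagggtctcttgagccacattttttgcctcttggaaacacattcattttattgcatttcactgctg
5430425K12Rik: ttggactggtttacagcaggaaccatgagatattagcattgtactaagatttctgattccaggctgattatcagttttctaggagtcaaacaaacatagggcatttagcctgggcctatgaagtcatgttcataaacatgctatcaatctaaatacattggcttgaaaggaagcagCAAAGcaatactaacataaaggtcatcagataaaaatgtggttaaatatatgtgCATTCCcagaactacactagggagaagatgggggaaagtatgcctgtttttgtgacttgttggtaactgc
Gm51651: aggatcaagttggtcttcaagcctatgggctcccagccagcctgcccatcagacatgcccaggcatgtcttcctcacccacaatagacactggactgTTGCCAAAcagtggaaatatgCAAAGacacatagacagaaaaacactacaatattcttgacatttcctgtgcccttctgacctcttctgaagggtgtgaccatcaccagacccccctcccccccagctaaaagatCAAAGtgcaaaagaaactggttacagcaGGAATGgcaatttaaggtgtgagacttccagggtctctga
Wincr1: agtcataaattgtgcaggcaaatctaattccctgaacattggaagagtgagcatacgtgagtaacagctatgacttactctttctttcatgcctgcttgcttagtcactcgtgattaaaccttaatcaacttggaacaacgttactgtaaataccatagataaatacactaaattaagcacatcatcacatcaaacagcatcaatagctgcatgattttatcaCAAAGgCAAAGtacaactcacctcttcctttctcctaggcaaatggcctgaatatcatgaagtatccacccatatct

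The Gm31880 window held the full HNF4 letters and the best-ranked region of the 29. Scores there were 24.9 in replicate 1 and 23.4 in replicate 2. The nearest coding gene, Hao2, a peroxisomal hydroxyacid oxidase of liver and kidney, was 37344 bp away. The HNF4 letters lay at bases 178 to 186 of the window, 126 bases from the region's midpoint, and overlapped a second core at bases 185 to 189. An AP-1 match, TGACTCA, lay 44 bases from the midpoint. The window of 5430425K12Rik, 44173 bp from the arrestin gene Arrdc3, scored 20.9 and 23.3 and held a single core and a single TEAD match. Gm51651, 40022 bp from the immediate-early gene Ier5, scored 20.5 and 18.4. Wincr1, 87095 bp from Mtap, scored 17.5 and 19.1 and held only core matches.

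Over the 29 windows the short core was present in 21 (72.4%), against 53.9% of all 32851 RefSeq promoters of 300 bases and 62.5% of the 5967 distal non-coding ones. The full HNF4 letters were present in 1 (3.45%), against 0.475% and 0.57%. AP-1 letters were found in 6 (20.7%), against 7.81% and 11% of the same backgrounds, and TEAD letters in 9 (31.0%), against 14.7% and 17.6%. C/EBP letters were found in 6 windows, against 10.8% and 13.7%, and FOXA letters in 1, against 3.65% and 5.16%. These matches describe letters in the window, and the number of windows was small. The distal non-coding promoters cover 1.67 Mb in all and held 17.4 distal regions per Mb (95% exact Poisson interval 11.6 to 24.9). All distal sequence together held 2.27 per Mb, which makes the promoter density 7.65 times as high. The scores of the 29 had medians of 11.8 in replicate 1 and 11.5 in replicate 2, above those of all distal regions, 9.86 and 9.78.

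MicroRNA genes gave a further set of sequences near distal regions. Of 1005 mouse hairpins in the RefSeq table, 13 had a distal region within 5 kb. No background share was worked out for this count, so it does not show an excess of distal regions near hairpins. The mature forms below are those of the cluster whose hairpins share a seed, and of the hairpin beside the region with the highest replicate 1 score of those within 5 kb, with the seed (bases 2 to 8) in capitals. The minus-strand hairpins of the first cluster lie at chr6:31062660-31062747 and chr6:31063023-31063093, and that of Gm51276 at chr4:150797898-150797952.
mmu-miR-29a-3p: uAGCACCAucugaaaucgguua
mmu-miR-29b-3p: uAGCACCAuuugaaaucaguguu
mmu-miR-12196-3p: uCACAGGUgagcuagaaaguau

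miR-29a and miR-29b share the seed AGCACCA and are known as repressors of collagen genes. A distal region with scores of 18.2 in replicate 1 and 10.2 in replicate 2 lay 682 bp from the Mir29a hairpin and 1045 bp from that of Mir29b-1, and 102988 bp from the nearest coding gene, Klf14. The Gm51276 hairpin, source of miR-12196, lay between Slc45a1 and Errfi1 with distal regions 963 and 2024 bp away. Their scores were 32.2 and 18.9 for the nearer and 16.2 and 21.0 for the farther. Mir7680 lay closest of all to a distal region, at 28 bp, with low scores of 7.95 and 6.43. No RNA was measured, so nothing is known here about the transcription of these hairpins.

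Distal regions lay a median of 55.1 kb from the nearest coding gene, with quartiles of 24.0 and 146 kb. The lower end was fixed by the choice of regions, and 548 (18.6%) lay within 10 to 20 kb of a gene. Regions just inside the limit were 10009 bp from Apob, which encodes the main apolipoprotein of liver-made lipoproteins, and 10086 bp from Tex10. Those just outside lay 9987 bp from Rybp, 9994 bp from Tiparp and 9996 bp from Ankrd17, the neighbour of Alb. Beyond 100 kb there were 995 regions (33.8%), beyond 500 kb 126 and beyond 1 Mb 36.

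The most isolated region lay 1960994 bp from Pik3c3, a phosphoinositide kinase gene, in the gap that starts at Celf4 on chromosome 18. It scored 21.6 in replicate 1 and 9.15 in replicate 2, so the replicates differed by over 2-fold. The next lay 1739791 bp from the activin receptor gene Acvr2a, in the desert between it and Zeb2, with scores of 14.1 and 6.92. A pair beside Slc10a2 lay 1708699 and 1702125 bp from that gene and scored 10.0 and 11.7, and 6.08 and 7.51. The fifth, 1653616 bp from Slitrk5, had the lowest score of all distal regions in replicate 1, 2.44, against 4.21 in replicate 2. The 36 regions beyond 1 Mb had median scores of 8.29 and 7.69, below the medians of all distal regions in both replicates.

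Distal regions were less dense in long gaps between genes than in short ones. Gaps between neighbouring coding genes were grouped by length, and only sequence over 10 kb from both genes was counted, 1288 Mb in all. Of the 2945 regions, 2922 lay between genes and 23 beyond the outermost gene of a chromosome. Gaps of 20 to 50 kb held 4.28 regions per Mb (95% exact Poisson interval 3.72 to 4.90) and gaps of 50 to 100 kb 4.18. The density was 3.38 in gaps of 100 to 250 kb, 2.98 in gaps of 250 to 500 kb and 2.01 in gaps of 500 kb to 1 Mb. Gaps of 1 Mb or more held 0.999 per Mb (0.911 to 1.09), 4.28-fold less than the shortest class.

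The same order was present in each replicate's own summits, except that replicate 1 was slightly denser in the second class than in the first. Counted here were distal summits between genes with scores up to 100, shared or not. Those of replicate 1 fell from 9.13 per Mb in the shortest gaps to 2.57 in the longest, a ratio of 3.55. In replicate 2 they fell from 10.9 to 3.22 per Mb, a ratio of 3.39. Density also fell with distance from the nearest gene, from 3.83 regions per Mb at 10 to 20 kb to 0.530 at 1 Mb or more. Scores changed less, with medians of 9.72 and 9.52 in the shortest gaps and 9.06 and 9.16 in the longest. Base composition and the share of sequence to which reads can be mapped were not measured, and their part in these densities was not tested.

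**Figure D1:**
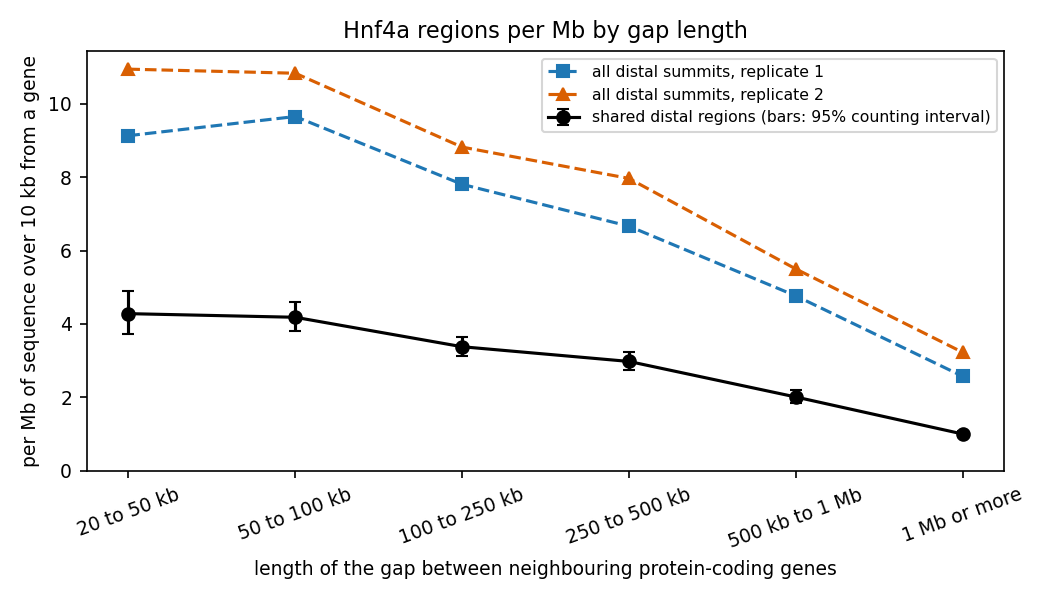
Hnf4a regions per Mb of sequence over 10 kb from a protein-coding gene (vertical axis) in gaps of increasing length between neighbouring genes (horizontal axis). Black circles are shared distal regions with 95% exact Poisson intervals. Blue squares and orange triangles are distal summits of replicates 1 and 2, shared or not, with scores up to 100. Shared regions go from 4.28 per Mb in gaps of 20 to 50 kb to 0.999 in gaps of 1 Mb or more.

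Gene deserts, taken as gaps of 500 kb or more, numbered 639, and 359 of them held a distal region. They contained 981 distal regions, 33.6% of those between genes (95% exact binomial interval 31.9 to 35.3), and 56.6% of distal sequence. Of the 268 gaps of 1 Mb or more, 95 held none. The longest empty desert was the 4277740 bp between Cntnap5b, a contactin-associated gene of neurons, and the cadherin gene Cdh20 on chromosome 1. The next was the 3595087 bp between Stim2 and the protocadherin gene Pcdh7 on chromosome 5. Other empty deserts lay between Cdh8 and Cdh11 and between Cdh2 and Dsc3, all genes of cell adhesion. These names follow from length and were chosen after the values were seen.

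Where distal regions did occur, they often shared a gap. Of 8887 gaps over 20 kb, 1583 (17.8%) held at least 1 distal region, 973 of them exactly 1 and 319 exactly 2. At the other end, 104 gaps with 5 or more held 683 regions, 23.4% of those between genes. The nearest other distal region lay a median of 72.2 kb away, and 1262 regions (42.9%) had one within 50 kb, though only 76 (2.58%) had one within 1 kb.

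The fullest gap, with 13 distal regions, lay between Klf4 and Actl7b on chromosome 4. Klf4 is a zinc-finger transcription factor of epithelia and a pluripotency factor, and Actl7b an actin-like gene of testis. The gap is 1208 kb long, and its regions scored from 4.31 to 25.6 in replicate 1 (median 8.96) and from 4.61 to 28.9 in replicate 2 (median 7.49). With 3 more on its other side, Klf4 was flanked by 16 regions, the nearest at 10484 bp and the farthest at 1082016 bp.

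Another 3 gaps held 12 distal regions each. Foxo1 is a forkhead factor that insulin keeps out of the nucleus and that drives gluconeogenesis in liver. The gap of 632 kb between Foxo1 and Cog6 was the most compact of these 3, with 19.6 regions per Mb of distal sequence. Its scores had medians of 15.4 in replicate 1 and 12.2 in replicate 2, and 9 of its 12 regions lay within 200 kb of Foxo1. Among them, a region at chr3:52464010-52464025, 113908 bp from Foxo1, scored 27.6 and 41.3, and another at chr3:52469984-52469988 scored 28.4 and 26.9. The farthest from Foxo1, at 493986 bp, scored 7.46 and 8.84. The gap of 2952 kb between Nmbr, a bombesin-type receptor, and Cited2, a partner of the coactivators CBP and p300, held 1 region far above the rest. It lay 1122024 bp from Cited2 and scored 52.7 and 53.9, against gap medians of 8.76 and 12.2. The gap of 3512 kb between the bile acid transporter gene Slc10a2 and the ephrin gene Efnb2 held regions near both edges and through its middle, scoring at most 33.1 and 42.2.

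Another 4 gaps held 10 distal regions each. Between Aldh8a1 and Sgk1, a kinase gene induced by serum and glucocorticoid, 5 regions lay within 100 kb of Sgk1. Of these, the region 98361 bp away scored 17.3 in replicate 1 and 25.4 in replicate 2, that at 80431 bp 23.8 and 14.5, and that at 48172 bp 18.1 and 14.6. Those at 96128 bp (8.06 and 9.67) and 42745 bp (8.84 and 7.85) scored lower. The other 5 lay 206997 to 455602 bp from Sgk1 and scored no higher than 13.0 and 14.0. Between Nyap2 and Irs1, which encodes an insulin receptor substrate, scores ran from 7.38 to 13.0 in replicate 1 and from 3.92 to 17.1 in replicate 2. The gap between Ccer1 and the calcium pump gene Atp2b1 spans 1220 kb and scored at most 15.9 and 25.4. Between the repressor gene Bcl6 and Lpp, which encodes a focal adhesion protein, the gap spans 404 kb. Its density was 26.0 per Mb of distal sequence, but its medians were only 9.09 and 7.43.

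**Figure D2:**
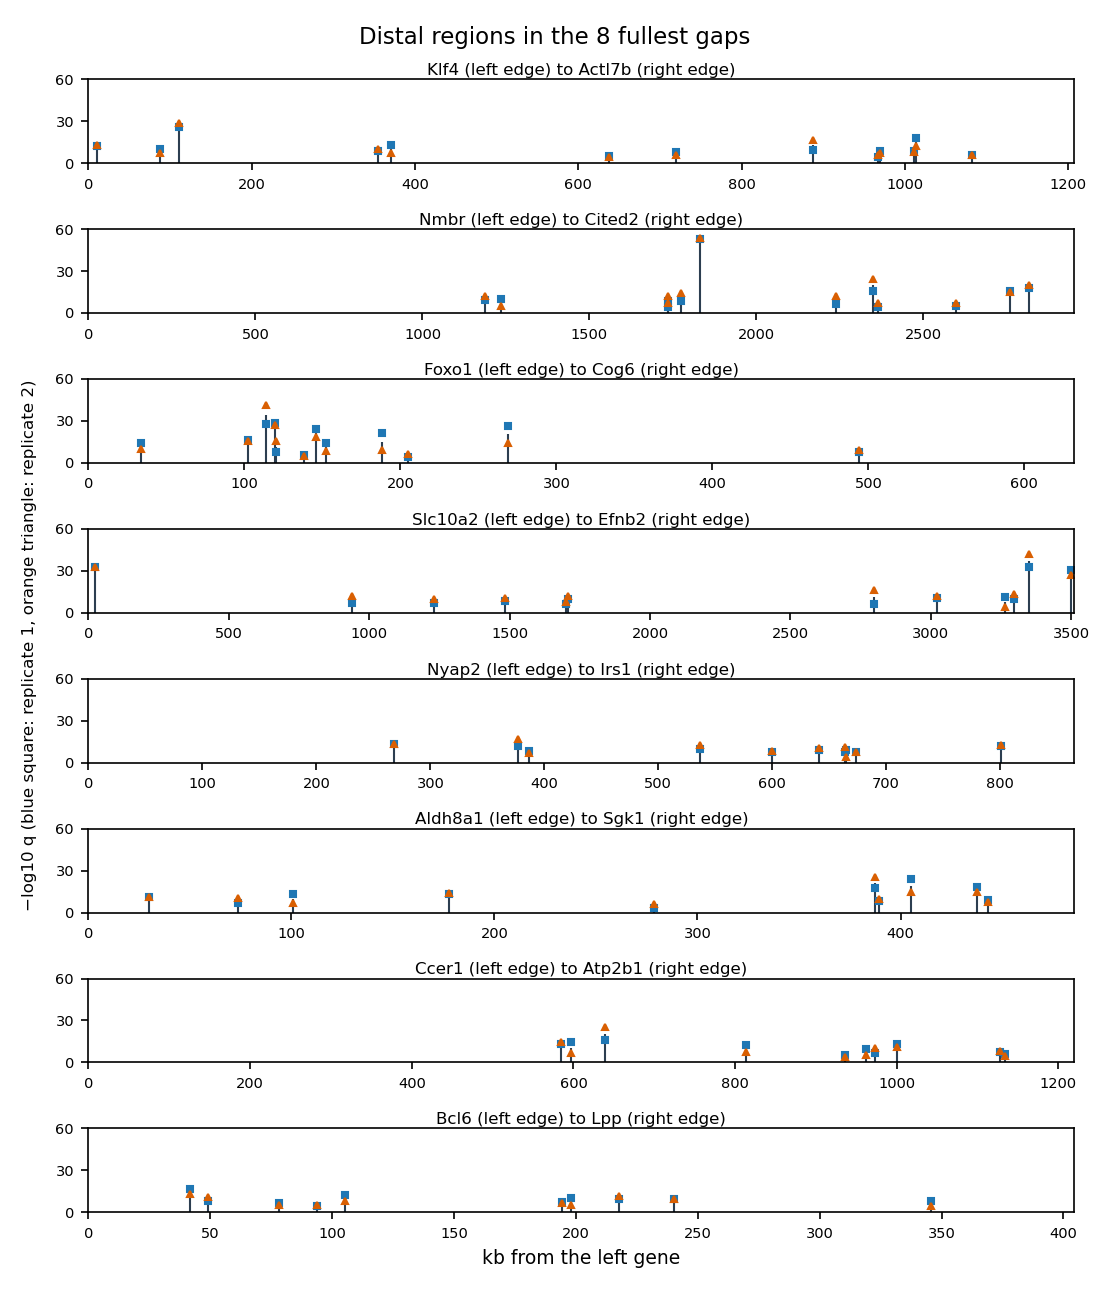
Positions of distal regions in the 8 gaps with the most of them, as kb from the left gene (horizontal axis), with the −log10 q of replicate 1 (blue squares) and replicate 2 (orange triangles) on the vertical axis and lines at their mean. Of the 12 regions beside Foxo1, 9 lie within 200 kb of it, and 1 region in the Nmbr to Cited2 gap stands at 52.7 and 53.9.

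Counted by gene over both sides, Myc had the most flanking distal regions, 18, with 9 on each side. Myc encodes a growth-promoting transcription factor, and its regions ran from 38211 to 1371065 bp away with scores up to 20.2 in replicate 1 and 21.4 in replicate 2. Of these, 4 lay inside the non-coding gene Pvt1. Btg1, an antiproliferative gene, and Klf6 were each flanked by 12. Shorter gaps were denser. Between Ryk and Slco2a1, a prostaglandin transporter gene, 5 regions lay in a gap of 98.8 kb, with scores from 8.76 to 19.1 and from 4.82 to 17.2. The density was 63.5 per Mb of the gap's sequence over 10 kb from both genes. Between Ywhaz, which encodes a 14-3-3 protein, and Zfp706, 8 regions lay 63493 to 157750 bp from Ywhaz. The best of them at chr15:36933487-36933493 scored 33.6 and 35.3, and that at chr15:36898979-36899007 scored 40.5 and 28.8. These genes were chosen after their values were seen.

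Scores of distal regions were similar in the replicates. The median was 9.86 in replicate 1 (quartiles 6.94 and 14.7) and 9.78 in replicate 2 (6.85 and 14.3). Across the 2945 regions, which are not independent replicates, the scores had a Spearman rho of 0.604 and a Pearson r of 0.667 on the log10 scale. In 354 regions (12.0%) they differed by over 2-fold, 180 higher in replicate 1 and 174 higher in replicate 2. Scores of 20 or more in both replicates were reached by 213 regions and of 50 or more by 14. The 2 summits of a region lay a median of 32 bp apart, and no distal region held more than 1 summit of either replicate.

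Median scores of shared regions nearer genes were close to these. Gene ends had medians of 10.2 and 9.78, gene bodies 9.83 and 9.34, and the 1 to 10 kb class 9.75 and 9.51. The distal median was below that of gene ends in both replicates, hardly so in replicate 2, and above the other classes in both. However, the score limit of 100 was applied to distal regions only. Without it the distal medians were 9.91 in replicate 1 and 9.80 in replicate 2, and the latter was above that of gene ends. The rho between replicates was 0.550 at gene ends, 0.578 in gene bodies and 0.606 at 1 to 10 kb. Of all distal summits, 43.0% of 6869 in replicate 1 and 36.7% of 8058 in replicate 2 had a counterpart in the other replicate. At gene ends 46.6% did in each, and in gene bodies 41.9% and 36.5%.

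**Figure D3:**
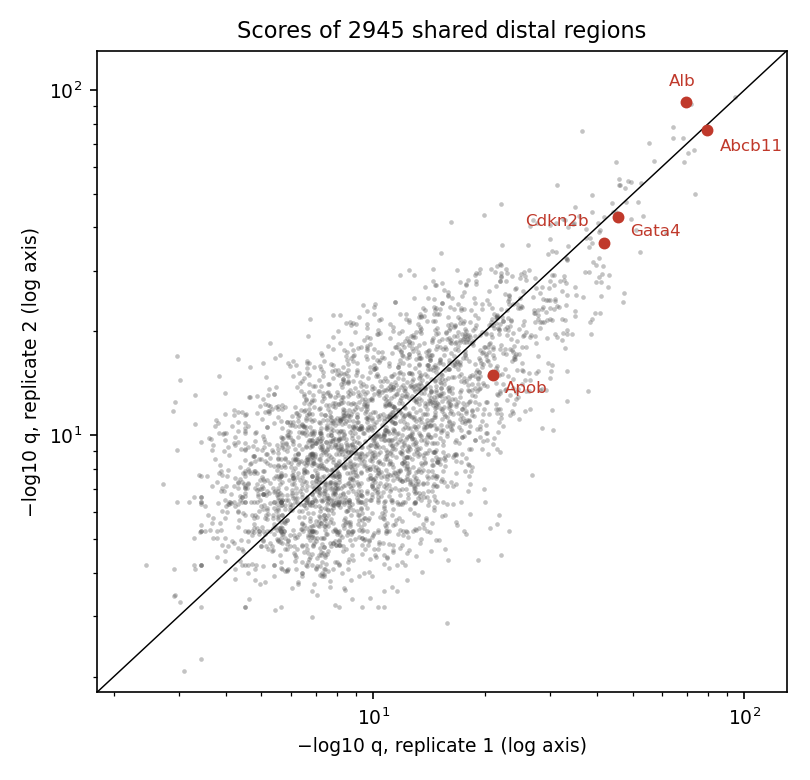
−log10 q of each of the 2945 distal regions in replicate 1 (horizontal axis) and replicate 2 (vertical axis), both on log axes, with the line of equal scores. Red points are the best-ranked distal regions flanking 5 named genes, and those of Alb and Abcb11 lie near the top of both replicates.

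The strongest distal regions had neighbours of many kinds. Regions were ranked in each replicate and ordered by the worse of both ranks. The first, on chromosome 17 at chr17:93046388-93046406, scored 94.4 in replicate 1 and 95.4 in replicate 2, just below the limit of 100. It lay 151848 bp from Adcyap1, which encodes the neuropeptide PACAP. The 11 regions above the limit began at scores of 107 and 138 for a region at chr2:98665164, in the gap after Lrrc4c, and 118 and 130 for one nearest Tns1. The highest of them, at chr2:98667132 in the same gap after Lrrc4c, scored 1799 and 2028, and chr2:98662281 in that gap scored 1540 and 1856. What raised these scores was not tested, so the 11 regions above the limit may not be Hnf4a binding. Among the distal regions ranked next, some lay near liver genes. Abcb11, which encodes the pump that exports bile salts, had a region at 12968 bp with 79.3 and 76.5, and Alb, the albumin gene, had one at 13149 bp with 69.5 and 92.3.

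A region 11933 bp from Krr1 and 452113 bp from Phlda1 scored 73.2 and 66.9. Another, 20387 bp from Id3, an inhibitor of basic helix-loop-helix factors, scored 64.4 and 78.3. Regions 62361 bp from the cyclin gene Ccnh (70.5 and 65.6), 11345 bp from Egln1, an oxygen-sensing hydroxylase (68.7 and 62.1), and 20202 bp from the corepressor gene Irf2bp2 (57.0 and 62.5) followed. A region 11828 bp beyond Gm14496, at the end of chromosome 2, scored 64.4 and 72.4. Also among the first 10 were regions at chr9:3032458-3032459 and chr9:3002137, with scores of 71.7 and 91.0 and of 68.4 and 72.9. They belong to 7 distal regions between positions 3000118 and 3036060 of chromosome 9, before the first gene, and without these 7 the medians were 9.84 and 9.76 and the rho 0.602. Between them lay chr9:3025530, which was set aside with scores of 143 and 152. Whether the authors filtered regions of high background is not known. What raised the scores at this place was not tested, so these regions may not be Hnf4a binding.

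Regions on which the replicates differed most had low scores in one of them. The largest excess in replicate 1 was 597013 bp from Smarca1 on chromosome X, with 15.8 against 2.87, a log2 ratio of replicate 2 over replicate 1 of -2.47. Regions beside Nek7 (22.1 and 4.50) and Cspg5 (23.3 and 5.29) followed, then those nearest Tomm20 and Icos. The largest excess in replicate 2 was 150817 bp from Sp3, with 2.95 against 16.9, a log2 ratio of 2.52. Regions nearest Ipo5 (3.01 and 14.4), Tenm3 (2.92 and 12.5), Tmem200a and F2rl1 came next.

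Chromosome X held few distal regions. Its 44 gave 0.408 per Mb of distal sequence (95% exact Poisson interval 0.296 to 0.548), against an autosome median of 2.46. The lowest autosome was chromosome 7 with 1.92 and the highest chromosome 13 with 3.31. Each replicate's own distal summits were also sparse on X, with 1.33 per Mb in replicate 1 and 2.30 in replicate 2, where chromosome 7 had 4.27 and 5.09. One of the 44, 43499 bp from the connexin gene Gjb1, scored 15.6 and 11.4.

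**Figure D4:**
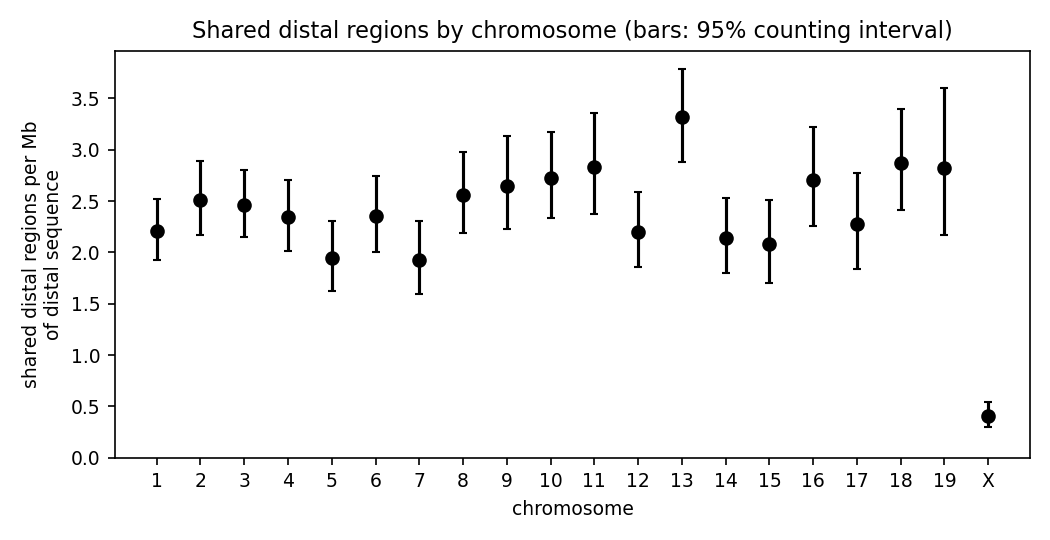
Distal regions per Mb of distal sequence (vertical axis) on chromosomes 1 to 19 and X (horizontal axis), with 95% exact Poisson intervals. Autosomes lie between 1.92 and 3.31 per Mb and chromosome X at 0.408.

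Of all 21519 coding genes, 2863 (13.3%) were next to a gap that held a distal region. Only genes beside a gap over 20 kb can be, and of these 12596 genes the share was 22.7%. It rose with the longest gap a gene borders, from 10.6% at 20 to 100 kb to 38.3% at 100 to 500 kb and 63.8% at 500 kb or more. Counts for each list are therefore also given by these gap lengths, as the shortest, middle and longest class. Within 100 kb of a distal region lay 15.2% of all coding genes. Lists and genes were described by counts without a test, and genes of a list can share a region. A region given for a list gene can lie nearer to the gene on the other side of the gap.

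Genes of the growth factor and glucocorticoid response were often flanked. Of 20 with a gap over 20 kb, 13 flanked a distal region, and 13 of all 22 (59.1%) had one within 100 kb, against 15.2% of all genes. By gap length the flanking counts were 4 of 8 at 20 to 100 kb, 8 of 11 at 100 to 500 kb and 1 of 1 above. Among the other lists, the share within 100 kb was 52% for epithelial, 45.5% for AP-1 and YAP, 38.9% for p53 and 37.5% for cholangiocyte genes. It was 28.6% for carbohydrate, 25% for neuronal, 21.2% for plasma protein and 20.8% for bile acid genes. Hepatocyte factors had 20%, developmental factors 19.4%, xenobiotic genes 16.7% and fibroblast genes 15.4%. Intestinal and housekeeping genes had 15% each, blood and endothelial genes 10% and olfactory receptors 1.53%. Errfi1, a feedback inhibitor of the EGF receptor, had 4 regions, at 45151, 53820, 54881 and 183612 bp. Their scores in replicates 1 and 2 were 22.7 and 13.6, 16.2 and 21.0, 32.2 and 18.9, and 6.72 and 6.40, so the 3 nearer ones scored higher than the farthest in both replicates.

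Nr3c1, the glucocorticoid receptor gene, had 4 regions, of which the best lay 222080 bp away and scored 17.6 and 26.0. Sgk1 had the 10 described above, and Spry2, an inhibitor of receptor tyrosine kinase signalling, had 6 with a best of 15.6 and 14.4. Egfr and the ligand genes Areg and Ereg also had flanking regions: Egfr 3 within 53937 bp and Areg 5, of which 2 lay in the gap it shares with Ereg. The last 3 genes were named after their values were seen.

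Hepatocyte transcription factors had flanking regions in 12 of 20, with 6 of 6 in the longest gap class, 4 of 5 in the middle and 2 of 9 in the shortest. Gata4, a zinc-finger factor of early liver and heart, had 1 region 54291 bp away that scored 45.6 in replicate 1 and 42.8 in replicate 2. Prox1, a homeodomain factor of hepatoblasts, had 1 region 157983 bp away that scored 35.8 and 43.2. Nr5a2, a nuclear receptor of bile acid metabolism, had 2, at 177070 and 185945 bp, of which the first scored 20.0 and 18.0. Both lay nearer to Zfp281, at 35101 and 26226 bp. Foxa2, one of the introduced factors, had 3 beyond its gene, at 138053, 139664 and 325528 bp, with scores of 8.45 and 11.6, 13.6 and 6.80, and 23.3 and 24.8. Hnf4a itself, which borders a gap of 29.4 kb at most, had none.

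Plasma protein genes lie in shorter gaps. Of 14 eligible genes, 6 flanked a distal region. The counts were 4 of 10 in the shortest class, where the share of all genes was 10.6%, 1 of 3 in the middle and 1 of 1 in the longest. Alb had a second, weaker region 29662 bp away that scored 7.87 and 9.35. Gc, the vitamin D binding protein, had a pair 139792 and 140401 bp away, the nearer with 24.4 and 24.0 and the farther with 8.26 and 5.06. Serpina1a, an alpha-1-antitrypsin gene, had 1 at 25098 bp with 23.1 and 20.2. Apob had 3 on each side, from 10009 to 173010 bp, with scores between 7.78 and 21.0 in replicate 1 and between 8.16 and 19.1 in replicate 2. Of the other hepatocyte markers, Ttr had none and Apoa1 borders no gap over 20 kb.

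Metabolic lists differed among themselves. Bile acid and lipid genes had 5 of 13, with 3 of 10 in the shortest class, 1 of 1 in the middle and 1 of 2 in the longest, led by Abcb11, Lpin1 (13.5 and 9.99), Lipc (14.7 and 4.96) and Abcb4 (7.03 and 4.93). Carbohydrate, amino acid and urea genes had 4 of 15, with 2 of 10, 2 of 4 and 0 of 1. Among these the gluconeogenic enzyme gene Fbp1 had a region 31857 bp away with 24.9 and 28.5, and Glul, glutamine synthetase, had 4 regions with a best of 12.5 and 21.3. Got1, an aminotransferase gene, had 1 with 9.63 and 10.4. Xenobiotic genes had 2 of 13, with 0 of 10 in the shortest class and 2 of 3 in the middle one. These were the retinal dehydrogenase gene Aldh1a1 with 23.1 and 25.3 at 10771 bp and Cyp2b10 with 6.58 and 9.30.

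Epithelial junction and keratin genes border short gaps, with a median longest gap of 46.4 kb against 64.2 kb for all eligible genes. Of 21 eligible genes 13 flanked a distal region, 9 of 17 in the shortest class and 4 of 4 in the middle one. Krt23, a keratin gene, had a region at 16117 bp with 25.3 in replicate 1 and 15.4 in replicate 2. Krt18, a keratin of simple epithelia including hepatocytes, had one at 13674 bp with 15.5 and 26.4. Epcam, an adhesion molecule of epithelial and progenitor cells, had 2 with a best of 12.8 and 14.5, and Gjb1 that on chromosome X described above. The region beside Krt23 also flanks the gap of Krt20 in the intestinal list, where 5 of 15 genes had one (1 of 7, 1 of 4 and 3 of 4 by class), so these lists are not independent.

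Of 15 cholangiocyte and progenitor genes 8 flanked a distal region, 3 of 6 in the shortest class, 2 of 4 in the middle and 3 of 5 in the longest. Sox9, a marker of bile duct cells, had 9, the best at 53224 bp with 16.7 and 12.4. The Notch target Hes1 had 7, with a best of 14.0 and 16.0, and Sox4 had 4. The list of AP-1 factors, YAP and their targets had 8 of 16, with 1 of 9 in the shortest gap class, 6 of 6 in the middle one and 1 of 1 above. Ccn2, a YAP target, had 8 regions, 7 of them within 200 kb, and the best scored 19.4 and 19.5. That best region lay 199365 bp from Ccn2 and 93294 bp from Moxd1. Atf3 had 4 within 94535 bp with a best of 23.9 and 16.8, Tead4 had 1 with 12.5 and 21.5, and Ccn1 had 2. Among p53 and cell-cycle genes 4 of 14 had one, with 2 of 9, 2 of 4 and 0 of 1 by class, led by Cdkn2b, a cyclin-dependent kinase inhibitor. It had 5 within 116911 bp, of which the nearest at 40783 bp scored 42.0 and 36.2.

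Fibroblast and mesenchyme genes also had flanking regions, 10 of 24, with 1 of 9 in the shortest class, 5 of 11 in the middle and 4 of 4 in the longest. Col1a2, a collagen gene, had a region 155458 bp away that scored 25.5 in replicate 1 and 19.5 in replicate 2. Fn1, fibronectin, had 6, the best of them 446334 bp away with 27.7 and 15.3. Twist2 had 2 with a best of 14.3 and 17.1, and Zeb1 had 1 with 13.8 and 13.7. Pdgfra had 1 with 8.07 and 6.43, and neither Col1a1 nor Thy1 had any, although Thy1 borders a gap of 236 kb.

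Developmental transcription factors that often sit beside deserts had flanking regions in 24 of 36. All 24 were among the 28 that border a gap of 500 kb or more, and none of the other 8 had one. The median longest gap of this list was 701 kb. The best regions were beside Zic1 (40.9 and 39.3, 1055712 bp away), Nr2f2 (30.7 and 29.1), Sall1 (26.9 and 42.2) and Lmo4, which had 10 regions and a best of 20.9 and 21.7. Neuronal and glial genes had 6 of 16, 1 of 8 in the shortest class and 5 of 8 in the middle one, led by Neurod1 (30.8 and 24.8), Slc17a6 (20.8 and 30.4), Gad2 and Nefm. Blood and endothelial genes had 3 of 15, with 1 of 9, 1 of 4 and 1 of 2 by class, of which the endothelial cadherin gene Cdh5 had 6 regions and a best of 20.5 and 26.3. Housekeeping genes had 1 of 9, Ywhaz, in the middle class, and 0 of 7 in the shortest. Olfactory receptor genes had 6 of 758 (0.792%), and 728 of these 758 border gaps of no more than 100 kb, of which 2 flanked one.

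**Figure D5:**
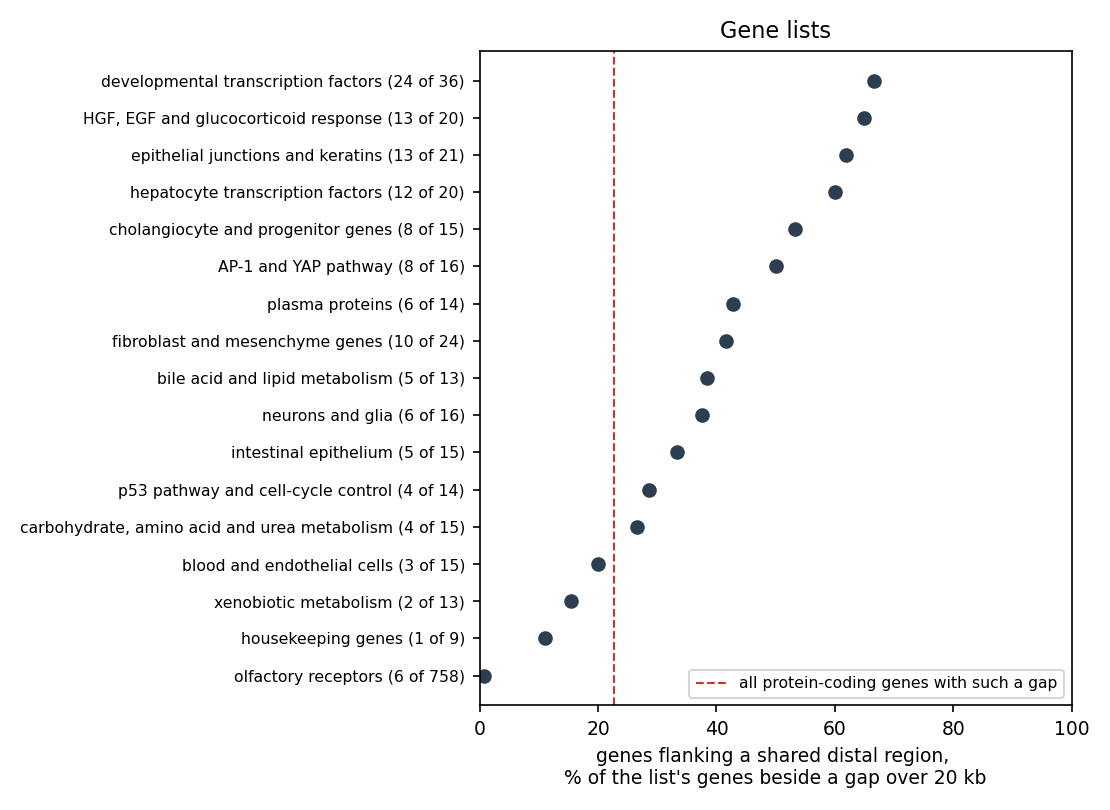
Percent of each gene list's members beside a gap over 20 kb that flank a distal region (horizontal axis), with counts beside each list name. The dashed red line is the share of all such coding genes, 22.7%, and the lists differ in gap length, so a point to its right can go with long gaps.

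Non-coding genes lay at 635 distal regions (21.6%, 95% exact binomial interval 20.1 to 23.1), against 14.1% of distal sequence. Most were lncRNA genes, which held 597 regions (20.3%) against 11.7% of distal sequence. The best-ranked inside a non-coding gene lay in 1700108F19Rik between Serp2 and Lacc1, with 55.3 in replicate 1 and 70.2 in replicate 2. Next were regions in Gm20755 (48.6 and 54.4) and in A930011G23Rik, 274120 bp from Rasgef1b (73.6 and 50.1). The region in Gm4151, 46834 bp from Blk, is the one that flanks Gata4, and the fifth lay in AI847159 near the phosphate transporter gene Slc20a1 (41.9 and 43.0). The antigen receptor loci Tcra, Tcrb, Tcrd and Igh, which the annotation does not count as coding genes, held 9 distal regions.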

How the data were processed

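Hnf4a was measured by ChIL-seq in 1 group of 2 replicates. Tools named in the submitters' processing notes are MACS2 2.2.9.1, HISAT2 2.0.5 and fastp 0.23.4, and the build is mm10. The authors deposited 1-bp summits per library with a −log10 q-value, the q threshold being part of the peak names. Not given in the sources used here are a control, duplicate removal and region filters. There are 21283 and 24097 summits and no counts, so depth is unknown.

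Chains, gaps and flanking genes were computed in Python 3.11.15 (numpy 2.4.6, pandas 2.3.3, scipy 1.17.1, matplotlib 3.10.9). Coding genes that start before position 3000000 of a chromosome (108) carry scaffold positions and were dropped. Intervals are exact Poisson or exact binomial at 95% and treat summits as independent. Regions and gene lists were chosen with earlier results of these data known.

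Named were the 10 best-ranked regions, the 5 farthest, the 5 with the largest score ratio each way, those next to the limits, the 5 fullest gaps (8 with ties), up to 4 genes per list by the rank of their best region, Hnf4a, Foxa2 and 5 non-coding genes. Fibroblast and hepatocyte marker genes were also looked up. Other named genes, promoter windows and microRNAs were chosen after their values were seen. Some items that this rule picks are not reported here. The planned motif search in the regions themselves needs a genome and was not run, and RefSeq promoter windows were searched instead. Scripts were tested on simulated data. Alternatives changed the sharing distance, gene distance, score limits, gene set, desert length, window and replicates used.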

Additional observations from a re-analysis of the deposited data

How the results depend on the processing

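Of 161 recomputed values of 12 results, 89 moved by less than their 95% interval, or for the number of regions by less than 1.5 times, and 72 moved more. Requiring over 50 kb from genes left 1558 regions, scores of 10 or more in both replicates 1017, and distance from every RefSeq gene, non-coding included, 1688. For distances over 5, 20 and 50 kb the median distance was 44.4, 77.5 and 136 kb, the desert share 30.1%, 40.0% and 55.3% (of distal sequence 52.8%, 62.5% and 74.3%), the share of genes with a flanking region 21.3%, 25.6% and 30.2%, and that within 100 kb 20.1%, 9.08% and 2.77%. Over 50 kb, 34.9% of replicate 2 summits had a counterpart. Against all RefSeq genes the median distance, desert share, flanking genes and genes within 100 kb were 26.4 kb, 5.06% (of sequence 13.6%), 9.66% and 8.36%, the replicate 1 median score was 9.46, and the density ratio of the shortest to the longest gaps was 5.85. For sharing within 50, 200 and 500 bp, counterparts were 29.7%, 51.7% and 55.8% in replicate 1 and 25.3%, 44.0% and 47.6% in replicate 2. Flanking genes were then 18.0%, 25.1% and 25.8%, and genes within 100 kb 11.3%, 17.4% and 18.0%. Median scores were 10.4 in replicate 1 and 10.3 in replicate 2 at 50 bp, 9.45 in replicate 2 at 200 bp, and 9.44 and 9.33 at 500 bp. With scores of at least 5 or 10 in both, the medians were 10.9 and 16.6 in replicate 1 and 10.7 and 16.3 in replicate 2. Counterparts were then 48.3% and 52.4% in replicate 1 and 44.9% and 53.2% in replicate 2, flanking genes 20.6% and 11.1%, and genes within 100 kb 13.7% and 6.43%. A minimum of 10 also gave a desert share of 31.7%, a rho of 0.536 and 24.4% inside non-coding genes. Deserts of 250 kb held 53.8% of regions and 72.0% of distal sequence, and those of 1 Mb 16.3% and 37.1%. Within 50 kb lay 8.32% of genes and within 200 kb 26.9%.

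From 1 replicate alone there were 6857 to 8046 regions, median distances of 57.8 to 60.5 kb, desert shares of 35.5% to 36.5%, flanking genes of 36.0% to 39.7%, genes within 100 kb of 27.7% to 31.0%, non-coding shares of 19.9% to 20.3%, and density ratios of 3.39 to 3.55. Median scores were 7.15 in replicate 1 alone and 6.43 in replicate 2 alone. The cause of these shifts was not tested beyond what each setting changes by construction. Leaving out the 7 regions at the start of chromosome 9, chosen after seeing the data, kept every result within its interval. No paired analysis was possible because there is only 1 group. Without counts or a control, depth and background could not be set against any score.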
